A study of Homo sapiens with 2 samples.

Results

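SPINK1 and CSTA encode protease inhibitors of different classes, and they stood on opposite sides of the comparison between Hep3B cells with and without a caveolin-1 hairpin. Both genes were chosen by symbol from the authors' deposited tables, which were selected on a difference of at least 2-fold between these same arrays, so 2 of the 190 genes named there by a single symbol are described. Hep3B is a human cell line grown from a hepatocellular carcinoma. The shCav1 sample carried a short hairpin against caveolin-1 (CAV1, the main coat protein of caveolae), and the shCtl sample carried a non-target hairpin; both were grown in high-glucose DMEM. The labels do not state the vector, the hairpin sequences, the time after transduction or whether the cells were a pool or 1 clone. Each sample was hybridised to 1 Affymetrix HG-U133 Plus 2.0 array. With 1 array per group there is no replicate error and no test, so every value below is a description of these 2 arrays, and lower CAV1 as such cannot be told apart from whatever else differed between the samples.

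SPINK1 is a small secreted inhibitor of the Kazal type that blocks trypsin by occupying its active site. It is best known from pancreatic acinar cells, where it restrains trypsin that is activated too early, and under the name tumour-associated trypsin inhibitor it is known as a product of several carcinomas, liver carcinoma among them. In hepatoma cells it is also known as an acute phase product that responds to interleukin-6. CSTA, also called cystatin A or stefin A, is an inhibitor without a secretion signal that acts inside cells on papain-like cysteine proteases such as cathepsins B, H and L. It is best known from squamous epithelia, where it is built into the cornified envelope of keratinocytes. The deposited annotation gives the same picture: SPINK1 is assigned to the extracellular region and to serine-type endopeptidase inhibitor activity, and CSTA to the cytoplasm, the nucleus and the cornified envelope and to cysteine-type endopeptidase inhibitor activity.

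The signal of SPINK1 was 32.9 on the shCtl array and 587 on the shCav1 array (probe set 206239_s_at, linear array units). Here and below, shCav1 signals were computed as the shCtl signal times the fold. In shCtl the signal of SPINK1 lay close to the array median of 30.6, and 51.7% of the 54613 probe sets were dimmer. In shCav1 it lay 19.0 times above the array median, and 90.0% of the probe sets were dimmer. The log2 difference, shCav1 minus shCtl, was 4.16, which is 17.9-fold, and the authors' deposited table gives the same fold of 17.9. These values chose the gene and are given as a description. Of the 28128 probe sets kept because the brighter array reached the median of all values, SPINK1 ranked at position 1 among the increases, and it was the single kept probe set with a difference of 16-fold or more in either direction. The probe set next to it, shared by MAGEA2 and MAGEA2B, had a log2 difference of 3.498, which is 0.66 less. The shCtl signal of SPINK1 was dim, so background limits the size of its fold: with a pseudocount of 16 on both signals it was 12.3-fold, and with 32 it was 9.55-fold.

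The signal of CSTA was 76.7 on the shCtl array and 24.2 on the shCav1 array (probe set 204971_at). It thus lay 2.504 times above the array median in shCtl and at 0.785 of the median in shCav1, with 67.8% and 43.7% of the probe sets dimmer. The log2 difference was -1.66, so that the shCav1 signal was 31.6% of that in shCtl, and in the authors' deposited table the decrease is 3.17-fold. Of the 28128 kept probe sets 12 had a larger decrease, which puts CSTA at position 13 among the decreases. The shCav1 value of CSTA thus sat in the dim range, where background makes up much of the signal. Each of the 2 genes is named at 1 probe set, so neither difference has a second named probe set to set beside it. Probe sets under 2-fold carry no gene name here, so a further probe set of either gene with a smaller difference would not be seen.

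**Figure D1:**
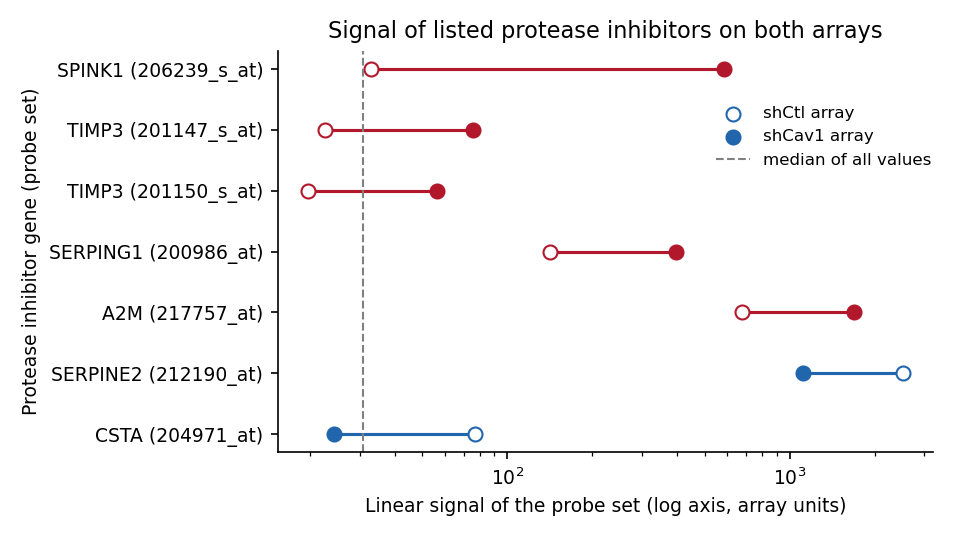
Linear signal (log axis, array units) of the 7 listed probe sets of protease inhibitors on the shCtl array (open circles) and the shCav1 array (filled circles), 1 array each, with increases in red, decreases in blue and the median of all values dashed. The shCav1 signals were computed as the shCtl signal times the fold. SPINK1 runs from 32.9 to 587 and CSTA from 76.7 to 24.2. Signals are to be read along a row, not between rows, since probe sets differ in how they bind.

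Over all kept probe sets the background was low. At least 2-fold higher were 141 of 28128 (0.501%), at least 2-fold lower were 84 (0.299%), and either way 225 (0.8%). Since the deposited tables are themselves the 2-fold selection, SPINK1 and CSTA had to pass this limit and nothing is read from their doing so. The listed probe set closest to the limit among the increases had a log2 difference of 1.0003 and the nearest unlisted one 0.999999; among the decreases these were -1.00518 and -0.999998. Most kept probe sets differed little, since the robust SD of the log2 differences was 0.21. Differences of at least 4-fold were found at 28 kept probe sets and of at least 8-fold at 8.

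Probe sets of like brightness gave a closer background. Within 0.5 log2 units of the mean signal of SPINK1 there were 4578 other kept probe sets, with a robust SD of 0.22; 26 of them were at least 2-fold higher and the highest had a difference of 2.08. Of the 5725 probe sets within 0.5 log2 units of its shCtl signal alone, the highest difference was 3.04. For CSTA the window on the mean held 7871 other probe sets with a robust SD of 0.20, of which 19 were at least 2-fold lower and 2 were lower than CSTA. Since both genes were selected on these differences, their places among probe sets of like brightness are a description and support nothing further.

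**Figure D2:**
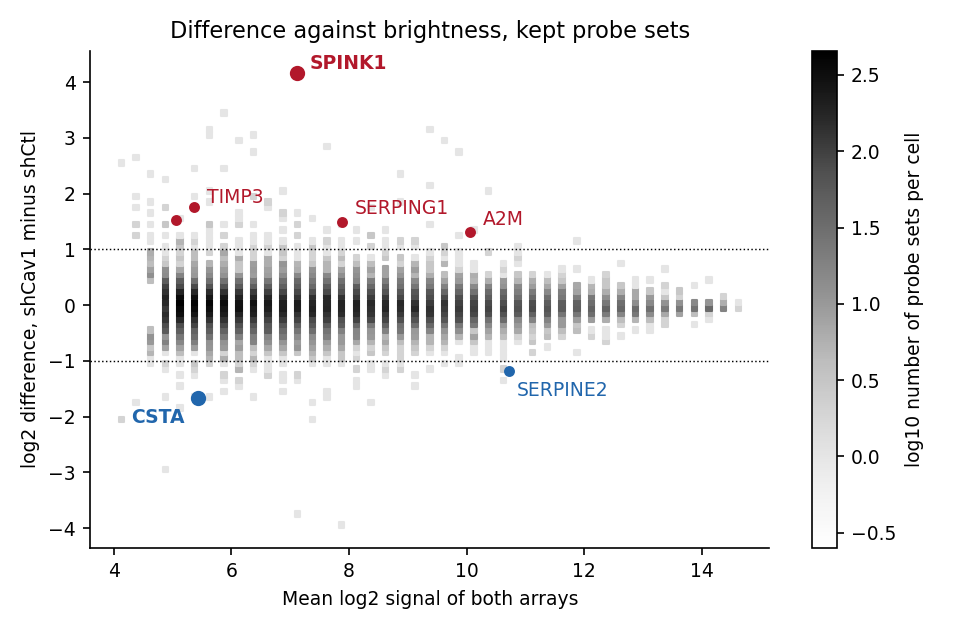
The log2 difference (shCav1 minus shCtl) of the 28128 kept probe sets against the mean log2 signal of both arrays, with grey shade for the number of probe sets per cell, dotted lines at 2-fold and the protease inhibitors in red (higher) or blue (lower). SPINK1 at 4.16 stands above every other point, while CSTA at -1.66 lies among other decreased probe sets in the dim range.

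Some values of the arrays as a whole stand beside both genes. CAV1 kept 6.61% of its control signal at probe set 212097_at and 7.38% at 203065_s_at, in the direction of the labels. The 18 probe sets for hybridization spikes, which measure handling and not the cells, read higher in shCav1 without exception, with log2 differences from 0.07 to 0.25 and a median of 0.14. Centred on these spikes, SPINK1 had a log2 difference of 4.02 and CSTA of -1.80. The probe set for the 5' end of a control transcript was lower relative to its 3' end on the shCav1 array in 12 of 14 control pairs, some of them for the same transcript; the median 5' minus 3' difference was -0.19, and the part of this in the differences of SPINK1 and CSTA was not tested. In cultured cells measured in bulk, fewer cells making a transcript and less of it per cell cannot be told apart.

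The genes most like each member were taken by the smallest distance between log2 differences over the 2 arrays. They were sought among kept genes with a single symbol that is not a LOC, FLJ or ORF name. Each gene was taken at its brightest listed probe set. These rules left out LOC400043 (3.12) for SPINK1 and probe sets of FAR2 (-1.77) and CAPS (-1.62) for CSTA, which were closer than some genes named below. For SPINK1 even the nearest gene by these rules was far off. MAGEA6, a cancer-testis antigen, had a difference of 3.17, at a distance of 0.98. It was followed by the transcription factor gene MYCN with 3.04, the immunoglobulin-domain gene VSIG1 with 3.004, MAGEA3 with 2.92 and the lectin gene CHODL with 2.91. The MAGE-A genes are near-identical in sequence, so their separate values are uncertain. Of these 5 genes, CHODL was the one whose shCtl signal, 281, was well above the array median; the other 4 ran from 16.2 to 29.7 and, like SPINK1, were near or below the median on the control array.

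For CSTA there were close neighbours. PRTFDC1, a relative of the purine salvage enzyme HPRT1, had a log2 difference of -1.66 at a distance of 0.0014, from 49.5 in shCtl to 15.7 in shCav1. TSPO, which sits in the outer membrane of mitochondria, had -1.67, from 358 to 112. The transcription factor gene KLF4 had -1.59, the mitochondrial adenylate kinase gene AK4 -1.74 and the carbonic anhydrase gene CA2 -1.55. These distances, up to 0.12, are below 0.21, the robust SD between kept probe sets, which is not a replicate error. With 1 array per group the error of a probe set is not known. No order among CSTA and these 5 genes is therefore read from the distances.

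A second set of genes, under the same rules for names and probe sets, was chosen for a shCtl signal closest to the member's. It was taken among the genes listed in the same direction. Next to the 32.9 of SPINK1 stood RTN1, a reticulon of the endoplasmic reticulum, which went from 33.1 to 75.4. ASXL3 went from 32.5 to 86.2 and CD36, the fatty acid and lipoprotein receptor, from 32.4 to 83.2. The complement protease gene C1S went from 31.99 to 76.1 and MUM1L1 from 34.4 to 231. These 5 genes were thus between 2.28-fold and 6.70-fold higher, where SPINK1 was 17.9-fold higher. A like signal need not mean a like transcript level, since probe sets differ in how they bind. Next to the 76.7 of CSTA stood SFRS15, FRMD5, MYO10, DLX2 and PAFAH2. In shCav1, 4 of these retained between 43.2% and 49.2% of their shCtl signal, against 31.6% for CSTA. The FERM-domain gene FRMD5 retained 12.8%, with 79.9 in shCtl and 10.2 in shCav1.

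**Figure D3:**
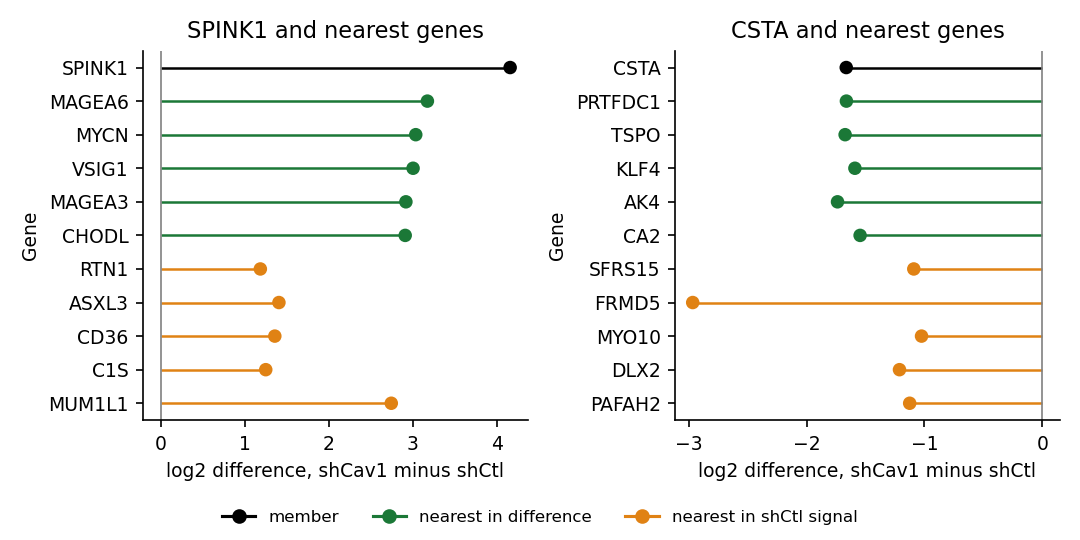
The log2 difference (shCav1 minus shCtl) of SPINK1 (left) and CSTA (right) in black, of the 5 genes nearest in difference in green and of the 5 genes nearest in shCtl signal in orange. The green genes, nearest under the rules in the text, lie 0.98 or more below SPINK1 but within 0.12 of CSTA.

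A group of 6 lists of protease inhibitors, with 86 genes in all, was set beside the pair. They held 6 genes with a listed probe set, 4 higher and 2 lower in shCav1, of which SPINK1 and CSTA are 2; without them 4 of 84 genes were listed, 3 higher and 1 lower. Probe sets under 2-fold carry no gene name in the tables used here, so that no list median can be given and a smaller difference in the other genes would not be seen. The lists were written with earlier results of these data known, and the shares of genes cannot be set against the share of probe sets above.

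Among inhibitors of serine proteases, the class of SPINK1, the other listed genes had far smaller differences than SPINK1. SERPING1, the C1 inhibitor of the complement and contact systems, had a signal of 141 in shCtl and 396 in shCav1, so its log2 difference was 1.49. A2M, alpha-2-macroglobulin, which traps proteases of all classes in a cage, was 677 and 1691, a difference of 1.32. SERPINE2, a cell-surface inhibitor of thrombin, urokinase and trypsin, went the other way, from 2532 to 1120, a difference of -1.18. These 3 genes were bright on both arrays, so background takes a smaller part of their signal than for SPINK1 in shCtl. Of the 14 Kazal-type genes SPINK1 was the one listed, and of the 25 serpins 2 were listed, 1 in each direction. None of the 15 Kunitz and WAP inhibitors, such as SPINT1, SPINT2, TFPI and SLPI, was listed. SPINK1 was chosen because it was listed. Past 2-fold were 0.8% of all kept probe sets, a share of probe sets and not of genes. The lists are small, so nothing is read from these counts.

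Among inhibitors of the other classes, CSTA was the one listed of 16 cystatins and related genes, a list that also holds its closest relative CSTB and the secreted cystatin CST3. TIMP3, a matrix-bound inhibitor of metalloproteinases, was listed at 2 probe sets of the same arrays, with log2 differences of 1.75 and 1.52. Both passed the 2-fold selection, and a TIMP3 probe set under 2-fold would carry no name here. The 2 values are therefore not an average for TIMP3, and their spread is technical. Its signals were 22.5 and 19.6 in shCtl and 75.8 and 56.3 in shCav1, so it was dim on the control array like SPINK1. By the deposited annotation the same 6 genes carry a peptidase inhibitor term, and CSTA was the single listed gene with the cysteine-type term and the single one with the cornified envelope term. CSTA too was chosen because it was listed. With 0.8% of all kept probe sets past 2-fold, nothing is read from these counts either.

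Proteases of the classes that hold the targets of these inhibitors were looked for next. None of 33 trypsins and other serine proteases was listed in either direction, PRSS1, PRSS2 and PRSS3 included. SPINK1 blocks trypsin, not this whole class. The list does not hold the complement proteases: C1S, a serine protease blocked by SERPING1, was listed as higher, with the signals given above. Of a list of 12 cysteine cathepsins and legumain, which includes targets of CSTA, 1 was listed. CTSS, a lysosomal cathepsin of antigen-presenting cells, was higher in shCav1 while CSTA was lower. Its signal was 7.10 in shCtl and 16.1 in shCav1, which is 1.19 on the log2 scale, and both values were below the brightness filter, so this difference is uncertain. CTSB, CTSH and CTSL were not listed. Of all kept probe sets 0.8% were past 2-fold and these lists are small, so nothing is read from their counts. Genes under 2-fold have no name here, so smaller differences would not be seen.

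Lists from the settings in which SPINK1 and CSTA are usually described were also counted. Of all kept probe sets 0.8% were past 2-fold, which is a share of probe sets and not of genes. The lists are small, so nothing is read from counts of 0 or 1. Of 21 genes of the acute phase and the interleukin-6 response, FGG, the fibrinogen gamma chain, was the one listed, from 263 to 944. CRP, SAA1, SAA2, HP and SOCS3 were not. None of 22 genes in a list of the cornified envelope and squamous epithelium, which leaves out CSTA itself and of which 21 match a current RefSeq symbol, and none of 10 genes of the EGF receptor family and its ligands was listed. Markers of pancreatic acinar cells (0 of 8), keratinocytes (0 of 10), leukocytes (0 of 6), fibroblasts (0 of 5) and hepatocytes (0 of 8) were likewise not among the 2-fold probe sets, and their levels are not known here because their probe sets have no name in the tables used.

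The authors' alignments come without a named genome build. In them the SPINK1 probe set lies on the minus strand of chromosome 5 (band q32) at 147204145 to 147211200 and the CSTA probe set on the plus strand of chromosome 3 (band q21.1) at 122044094 to 122060511. In the gene order of GRCh38.p14, SPINK1 lies in a cluster with SPINK5, SPINK14 and SPINK6, and CSTA lies between CASR and MIX23. Of the 10 protein-coding genes nearest to SPINK1, 5 on each side, 0 were listed, and of the 10 nearest to CSTA 0 were listed. With 0.8% of all kept probe sets past 2-fold, a share of probe sets and not of genes, nothing is read from these counts. Differences under 2-fold at these neighbours are not known here.

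The 250 bases before an annotated start of SPINK1 are shown because this is the transcript with the largest increase. The RefSeq span of the gene, 147824582 to 147839196, reaches further upstream on the minus strand. The window thus lies inside the gene span, and bases before any start further upstream were not examined. The sequence is from RefSeq (GRCh38.p14, minus strand, chr5:147831672-147831921), reads 5′ to 3′ and ends at the base before the start, with capitals for matches to TTNCNNNAA, a general form of the site bound by STAT factors, which act downstream of interleukin-6.
SPINK1 promoter: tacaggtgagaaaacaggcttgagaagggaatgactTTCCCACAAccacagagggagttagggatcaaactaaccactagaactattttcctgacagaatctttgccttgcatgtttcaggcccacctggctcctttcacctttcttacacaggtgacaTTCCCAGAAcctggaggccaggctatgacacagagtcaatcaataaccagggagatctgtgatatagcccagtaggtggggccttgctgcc
The match that begins 91 bases before the start also fits the stricter palindrome TTCNNNGAA, which overlaps the general form there; the other begins 214 bases before the start. On either strand, TTNCNNNAA is held by 30.8% and TTCNNNGAA by 6.78% of the 27305 windows of this length, 1 per gene, in the same table. Among listed genes with a window in the table, TTNCNNNAA was found before 33 of 93 higher and 8 of 55 lower ones. For TTCNNNGAA these counts were 10 of 93 and 2 of 55. The TATA box motif TATAA was not found in these letters. Nor was CCAAT found on either strand. The AP-1 site TGANTCA was also not found. The window holds 0 CG dinucleotides, as do 6.39% of all windows, against a median of 11, and its GC content is 48.8% against a median of 58.0%. A match describes the letters and does not show binding.

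Both directions held under every processing tried, but the sizes did not. An equal pseudocount cannot reverse a sign, and filters leave the values as they are. The centring shifts were small against both differences, and both genes were chosen on these differences. The held directions are thus a description and add no support. SPINK1 stayed at position 1 among the increases in each setting, with a log2 difference between 3.25 and 4.17. Adding a pseudocount to both linear signals, which damps dim values, gave SPINK1 3.63 at 16 and 3.25 at 32, the latter 9.55-fold instead of 17.9-fold. For CSTA it gave -1.21 at 16 and -0.95 at 32, which is 1.93-fold and under the 2-fold limit. CSTA was also left out by a brightness filter at the 75th percentile, a signal of 132, which it reached on neither array. Among the other inhibitors, TIMP3 was also under 2-fold at a pseudocount of 32, at 0.98 and 0.78, whereas SERPING1, A2M and SERPINE2 stayed past it.

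**Figure D4:**
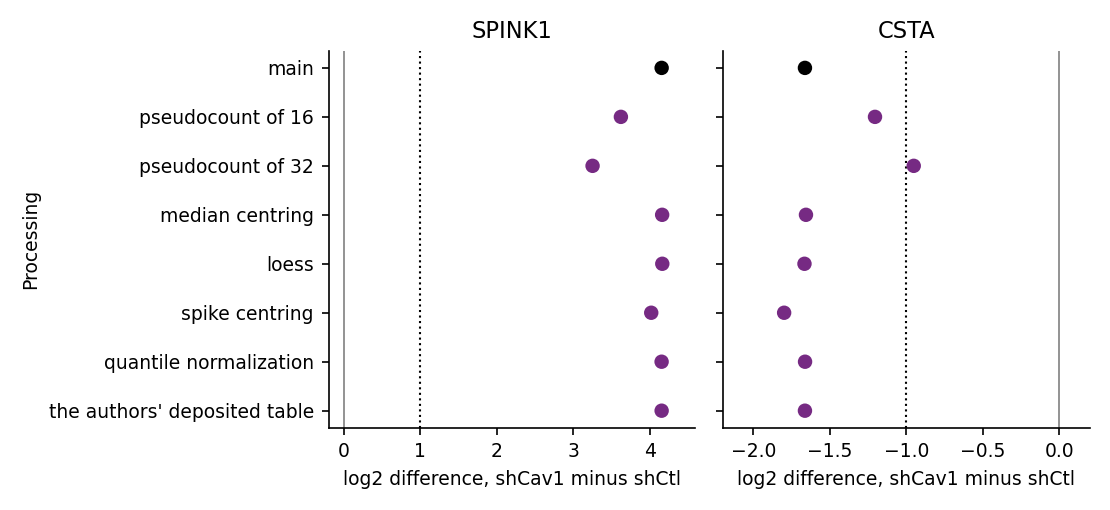
The log2 difference (shCav1 minus shCtl) of SPINK1 (left) and CSTA (right) as reported (black) and under each alternative processing (purple), with the dotted line at 2-fold. SPINK1 stays between 3.25 and 4.17, and CSTA crosses the 2-fold line at a pseudocount of 32, where it is -0.95.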

How the data were processed

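RNA of 2 Hep3B samples, grouped by title, was measured on 1 array each, which limits the precision. RMA, which quantile-normalizes the arrays, is the tool given per the submitters' processing notes, without a version. The deposited series values are log2 values centred by the authors per probe set, so they hold differences; these equalled the log2 values of the authors' deposited tables, which also give a linear ratio (fold), at all 244 listed probe sets within 1e-05. The deposited control column of linear signal intensity gave shCtl levels; shCav1 levels are this signal times the fold, which takes both to be on 1 scale. The remaining column of that table (1) could not be tied to a label by its name and was left out. Controls (62 probe sets) were left out, and probe sets were kept when the brighter array reached 30.7. Gene names came from the deposited tables, updated through RefSeq for the lists; process annotation was not used.

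The members and lists were chosen with earlier results of these data known. Named genes are SPINK1, CSTA, CAV1, listed members of the lists and the 5 nearest genes by difference and by shCtl signal. MAGEA2, MAGEA2B, LOC400043, FAR2 and CAPS are named for closer probe sets that the rules for nearest genes left out. Counting and centring were checked on simulated data. Alternatives were pseudocounts of 16 and 32 (the latter added after seeing the data), centring on the median or the spikes, loess (span 0.3), quantile normalization, other filters and limits of 1.5-fold and 3-fold. Python 3.11.15, numpy 2.4.6, pandas 2.3.3 and statsmodels 0.14.6 were used.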

Additional observations from a re-analysis of the deposited data

How the results depend on the processing

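The log2 differences of SPINK1 and CSTA moved by less than 0.21 under median centring, loess, spike centring and quantile normalization. This value is the robust SD between probe sets, not a replicate error. RMA had already quantile-normalized the arrays, and the authors' deposited table holds the same values, so neither is an independent check. Under a pseudocount of 16 the differences of SPINK1 and CSTA were 3.63 and -1.21. Under 32, chosen after seeing the data, they were 3.25 and -0.95, since a pseudocount shrinks dim differences. Counts of 141 higher and 84 lower probe sets became 91 and 49 at a pseudocount of 16, 60 and 33 at 32, 79 and 43 under the 75th percentile filter, which tests fewer probe sets, 552 and 578 at 1.5-fold and 42 and 16 at 3-fold. Spike centring gave 102 higher and 142 lower. The 6 listed protease inhibitors became 3 at 3-fold (SPINK1, CSTA and TIMP3) and 4 at a pseudocount of 32. No paired analysis was possible because there is 1 array on each side. Brightness over background limits CSTA in shCav1, SPINK1 and TIMP3 in shCtl, and CTSS on both arrays.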
